A study of Rattus norvegicus with 19 samples.

Results

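The Gadd45 genes encode small acidic nuclear proteins that cells make under stress. The growth arrest and DNA damage genes Gadd45a, Gadd45b and Gadd45g form the family proper, and Gadd45gip1 encodes a partner that binds them and also belongs to the mitochondrial ribosome. All 4 were followed in the livers of adult rats given pregnenolone-16α-carbonitrile (PCN), a man-made steroid and the standard agonist of the pregnane X receptor in rodents. Treated animals were fasted overnight, received 100 mg/kg PCN intraperitoneally and were killed 8 h later, and control animals were handled alike but received corn oil alone. Each group had 5 biological replicates. Strain and sex were not given in the sources used here. The study asked whether PCN counteracts stress through genes apart from those of drug metabolism.

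RNA was measured on 2 Affymetrix array types. The first had 10 arrays (5 corn oil, 5 PCN) and the second had 9 (4 corn oil, 5 PCN). Members were all probe sets annotated to exactly 1 gene of the family. This gave 4 genes of the 13810 that the single-gene probe sets of the series name, each with 1 probe set on the first array type. The second had 0. All 4 probe sets passed the filter on dim values (a mean at or above the 30th percentile), as did 11106 probe sets in all. The family was selected on a measured value, the PCN minus corn oil difference of Gadd45b, which earlier results of these data had shown to be the largest of the first array type. The differences of the members are therefore given as descriptions without a test.

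Gadd45 proteins have no known enzyme activity and act by binding others. They bind the kinase Map3k4 (MTK1) and so switch on the p38 and JNK branches of MAP kinase signalling. They also bind the proliferation clamp Pcna, the cell cycle inhibitor Cdkn1a and the mitotic kinase Cdk1, and they have been linked to DNA repair and to active removal of DNA methylation. Gadd45a is a classic target of p53 and of the FoxO factors. Gadd45b is induced by NF-kappaB and TGF-beta, rises early in the regenerating liver, where it restrains JNK signalling, and is known as a gene that the xenobiotic receptors of hepatocytes induce. Gadd45g is induced by cytokines.

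The promoters of the 3 family genes are shown first, as a description. Whether they bear on the differences after PCN was not tested. RefSeq's rat assembly GRCr8 places Gadd45a at chr4:97484497-97486799, Gadd45b at chr7:9428689-9430991, Gadd45g at chr17:13528606-13530351 and Gadd45gip1 at chr19:40225503-40228052. The promoter table used here held Gadd45a, Gadd45b and Gadd45g, all on the minus strand. The 250 bases before each start were searched on both strands for 9 motifs. The annotated Gadd45b gene extends 273 bases upstream of the start in that table, so its whole window lies inside the annotated gene. The starts named below are those of that table. Stretches of 30 bases are shown. Letters in capitals mark the motif.

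The E-box CACGTG, read by basic helix-loop-helix factors, occurred once each before Gadd45b and Gadd45g and was absent from the Gadd45a window. It was present in 5.59% of the 33469 rat promoters of the same length. The stretches are chr7:9430879-9430908 and chr17:13530497-13530526.
Gadd45b E-box: agccctgaccccCACGTGgggccgccggag
Gadd45g E-box: cgcacccctcccCACGTGgccttctggcac

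The octamer ATTTGCAT, read by POU-domain factors such as Oct-1, occurred once each before Gadd45a and Gadd45g and not before Gadd45b. Of all promoters 1.56% held it. The stretches are chr4:97486886-97486915 and chr17:13530457-13530486.
Gadd45a octamer: aaagtctgctaATTTGCATgacccaatgac
Gadd45g octamer: cctgccgcctcATTTGCATcagaaagcggg

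A CCAAT box, read by NF-Y, was found before all 3 genes, with 2 copies before Gadd45b, and in 34% of all promoters. The copies nearest to the start are shown, at chr4:97486877-97486906, chr7:9430794-9430823 and chr17:13530434-13530463.
Gadd45a CCAAT box: taatttgcatgacCCAATgacctggctgca
Gadd45b CCAAT box: ctttgtgcctccaCCAATggatgggcggtg
Gadd45g CCAAT box: aagcgggcgctggCCAATgggagcgcagcc

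A TATA element (TATAA, 24% of all promoters) lay 38 bases before the start of Gadd45b, where the letters also match on the opposite strand, and 48 bases before that of Gadd45g. The Gadd45a window held no match to it. The stretches are chr7:9430740-9430769 and chr17:13530383-13530412.
Gadd45b TATA element: tcccgggcggtctTATAAgcggcttgcagc
Gadd45g TATA element: cgcggagccggtcTATAAaaggactctccc

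The nuclear receptor half-site AGGTCA, of the kind that the pregnane X receptor and its partner bind in pairs, was found once, on the opposite strand before Gadd45a, and in 14.1% of all promoters. That stretch is chr4:97486872-97486901, and it overlaps the CCAAT stretch above.
Gadd45a half-site: tgcatgacccaaTGACCTggctgcatgtaa
The Gadd45b and Gadd45g windows held no match to these letters, and none of the 3 windows held the variant AGTTCA (12.2% of promoters), the cAMP response element TGACGTCA (1.59%) or the AP-1 element TGACTCA (4.05%). GC boxes (GGGCGG, 30.5% of promoters) numbered 1, 3 and 0 in Gadd45a, Gadd45b and Gadd45g. A match describes letters in a window and is not a measured site.

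Some arrays stood apart from the rest. On the first array type corn oil replicate 2 lay farthest from its group, with a mean absolute distance of 0.286 on the log2 scale over tested probe sets, against 0.154 to 0.187 for the other corn oil arrays. PCN replicate 2 (0.235) and PCN replicate 4 (0.220) lay farthest among the PCN arrays, where the others were at 0.133 to 0.175. On the second array type PCN replicate 5 was farthest (0.172, others 0.103 to 0.144). Earlier results of these data had also divided the first array type, without corn oil replicate 2, into a set of corn oil replicate 1 with PCN replicates 1, 3, 4 and 5 and a set of the 4 other arrays. The sample labels do not name these sets. They largely follow treatment, so a term for them cannot be fully told apart from treatment. The members' differences are given below with all arrays, without corn oil replicate 2, without PCN replicate 2 and within the 2 sets.

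Gadd45b was far higher in every PCN animal. Its log2 values in corn oil were 6.83, 7.89, 7.55, 8.21 and 8.31 in replicates 1 to 5, and after PCN they were 9.89, 11.14, 10.74, 10.86 and 10.77. The groups did not overlap, and the lowest PCN array stood 1.57 above the highest corn oil array. The means were 7.76 ± 0.60 (SD, n = 5) and 10.68 ± 0.47 (SD, n = 5), a log2 difference of 2.92 ± 0.29 (SE of the limma fit) or 7.57-fold. It ranked 1 of 11106 by size of rise, which is the value the family was selected on. The corn oil mean of Gadd45b lay among the array medians of all probe sets, 7.72 to 7.82. In whole liver, a change in RNA per cell and a change in the number of cells of a type cannot be told apart.

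**Figure D1:**
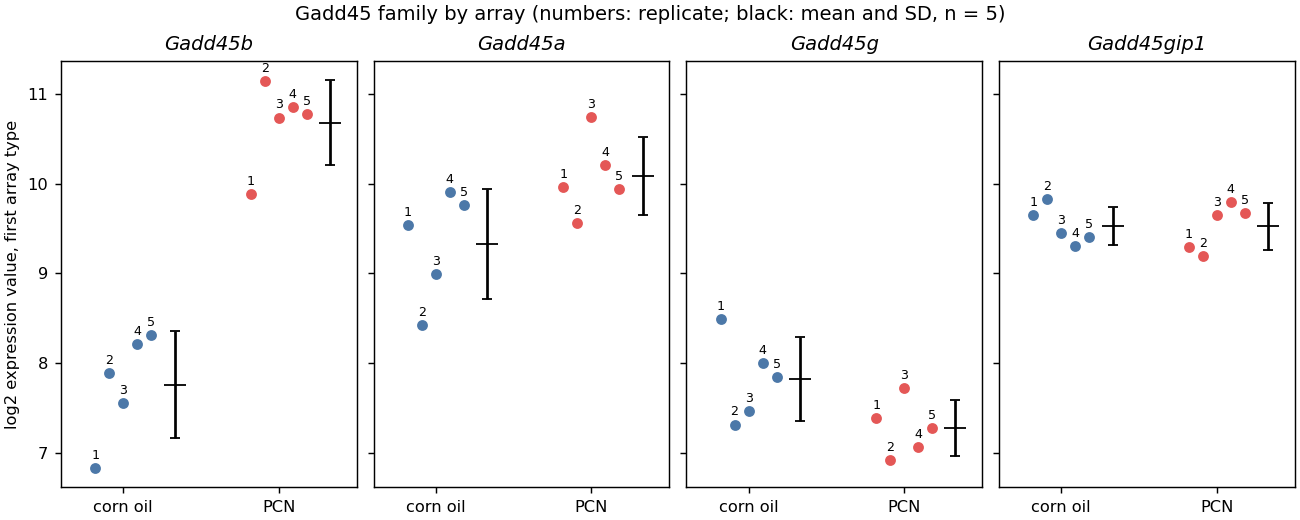
Log2 expression values of the 4 genes on the first array type, by treatment, with a point per array numbered by replicate and the mean and SD (n = 5) in black. Heights can be compared within a panel only. For Gadd45b the PCN arrays lie between 9.89 and 11.14 and the corn oil arrays between 6.83 and 8.31, while the groups overlap for the other 3 genes.

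Gadd45a, the member most closely tied to p53, was higher on average but the groups overlapped. Corn oil replicates 1 to 5 read 9.54, 8.42, 8.996, 9.91 and 9.76, and PCN replicates 1 to 5 read 9.96, 9.56, 10.74, 10.20 and 9.94. PCN replicates 1, 3, 4 and 5 exceeded all corn oil arrays, whereas PCN replicate 2 lay below corn oil replicates 4 and 5. The means were 9.33 ± 0.61 and 10.08 ± 0.43 (SD, n = 5 each), a log2 difference of 0.75 ± 0.28 (SE) or 1.69-fold. The lowest value of all was that of corn oil replicate 2, the array farthest from its group, and the difference was 0.53 without it.

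Gadd45g, the cytokine-inducible member, lay on the other side. Its corn oil values were 8.49, 7.31, 7.46, 8.00 and 7.85, and its PCN values 7.39, 6.92, 7.72, 7.06 and 7.27, again in the order of replicates 1 to 5. All 5 PCN arrays were below the corn oil mean and 3 of them were below every corn oil array, but PCN replicates 1 and 3 fell within the corn oil range. The means were 7.82 ± 0.47 and 7.27 ± 0.31 (SD, n = 5 each), a log2 difference of -0.55 ± 0.21 (SE), or 1.46-fold lower. Gadd45g was dim, with a mean over all arrays at percentile 22.5 of the tested probe sets.

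Gadd45gip1, the partner in the mitochondrial ribosome (also called CRIF1), had the same mean in both groups to within its error. Corn oil arrays read 9.65, 9.83, 9.45, 9.30 and 9.40, and PCN arrays 9.30, 9.19, 9.65, 9.80 and 9.68. The means were 9.53 ± 0.21 and 9.52 ± 0.26 (SD, n = 5 each), and the log2 difference was -0.0033 ± 0.14 (SE). PCN animals lay on both sides, 3 above and 2 below the corn oil mean.

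By the limma fit across the first array type, 1 of the 4 members was called higher at an adjusted p below 0.05, against 2.31% of all tested probe sets, and 0 were called lower, against 0.945%. The groups did not overlap for 1 member, higher after PCN, against 3.99% of probe sets that were higher and 2.05% that were lower without overlap. Since the contrast was used to choose the family, nothing is read from these counts.

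Within the 2 sets of arrays the differences were not alike for all members. Gadd45b was 3.73 higher on the log2 scale in the set with 1 corn oil and 4 PCN arrays, and 3.12 higher in the set with 3 corn oil arrays and 1 PCN array. Gadd45a was 0.67 higher in the first set and 0.0035 higher in the second. Gadd45g was lower in both, by log2 differences of -1.13 and -0.85, and Gadd45gip1 had -0.04 and -0.19. In each set 1 treatment has a single array, so these values carry no replicate error. With a term for the set and without corn oil replicate 2, the log2 differences were 3.43 for Gadd45b, 0.35 for Gadd45a, -0.99 for Gadd45g and -0.12 for Gadd45gip1. Without corn oil replicate 2 alone they were 2.95 for Gadd45b, 0.53 for Gadd45a, -0.67 for Gadd45g and 0.07 for Gadd45gip1.

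The 5 PCN animals were next compared with the corn oil mean one by one. Gadd45b was 4.37-fold above it in PCN replicate 1, 7.88-fold in replicate 3, 8.07-fold in replicate 5, 8.56-fold in replicate 4 and 10.4-fold in replicate 2. Replicates 3, 4 and 5 thus lay close together, replicate 1 below them and replicate 2 above. The weakest of these 5 responses, 2.13 on the log2 scale, was exceeded by the weakest response of 1 other probe set among the 11106. The ratios for Gadd45a ran from 1.18-fold in replicate 2 to 2.66-fold in replicate 3, those for Gadd45g from 0.536-fold in replicate 2 to 0.932-fold in replicate 3, and those for Gadd45gip1 from 0.793-fold in replicate 2 to 1.21-fold in replicate 4.

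**Figure D2:**
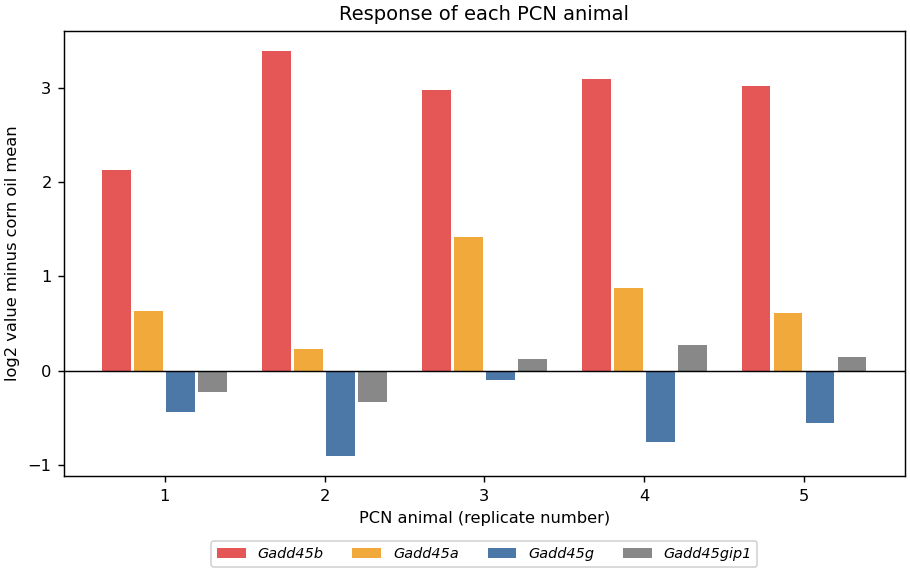
Log2 value of each PCN animal minus the corn oil mean, first array type, for the 4 genes (bars, n = 1 array each). Gadd45b ranges from 2.13 in replicate 1 to 3.38 in replicate 2, and replicate 2 has the lowest bar of the other 3 genes.

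The animals did not keep the same order across the genes. PCN replicate 2 had the highest Gadd45b and the lowest Gadd45a, Gadd45g and Gadd45gip1 of the PCN group. PCN replicate 3 had the highest Gadd45a and Gadd45g but ranked 4 of 5 for Gadd45b. Replicate 2 is also the PCN array that lay farthest from its group. Without it the log2 differences were 2.80 for Gadd45b, 0.88 for Gadd45a, -0.46 for Gadd45g and 0.08 for Gadd45gip1. Its part in the order was not tested further.

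The spread of the Gadd45 genes proper was wide in both treatments. The SD of Gadd45b within PCN was at percentile 97.2 of all tested probe sets and its SD within corn oil at percentile 96.9. Gadd45a stood at percentiles 96.5 and 97.2, and Gadd45g at 90.1 and 94.7. Gadd45gip1 was less extreme, at 83.3 and 67.6. The median probe set had an SD of 0.167 within PCN and 0.164 within corn oil.

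The spread itself was not used to choose the family and was tested. Mean absolute deviations from the group median were 0.275 in PCN and 0.428 in corn oil for Gadd45b (two-sided exact permutation p = 0.532). They were 0.289 and 0.451 for Gadd45a (exact permutation p = 0.563), 0.225 and 0.343 for Gadd45g (exact permutation p = 0.413), and 0.198 and 0.154 for Gadd45gip1 (exact permutation p = 0.746). All 4 adjusted values were 0.746 after Benjamini-Hochberg adjustment over the 4 genes. With 5 arrays per group and the median subtracted, this test cannot go below a p of 0.0476, so after adjustment it could have called a difference only if all 4 genes had reached that value. A difference in evenness between PCN and corn oil animals was not detectable here.

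Among the called rises of at least 2-fold Gadd45b was neither the most even nor the least. Of the 58 probe sets called and at least 2-fold higher on the first array type, 39 had a smaller SD within PCN than Gadd45b. The median SD of these 58 was 0.366, with a range from 0.113 to 1.07. A limma call favours a small spread, so uneven rises were less likely to be among the 58. Cyp3a2, for example, had a log2 fold change of 1.56 and an SD of 1.12 within PCN. It was not called (adjusted p = 0.0663, limma). Its corn oil mean of 6.51 lay below the filter cut of 6.67, so it passed the filter only through its PCN values. The responses of Gadd45b spanned 1.26 on the log2 scale from the weakest to the strongest animal, whereas those of Alas1, which catalyses the first step of heme synthesis, spanned 0.446 and those of the stress gene Zfand2a 2.38.

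**Figure D3:**
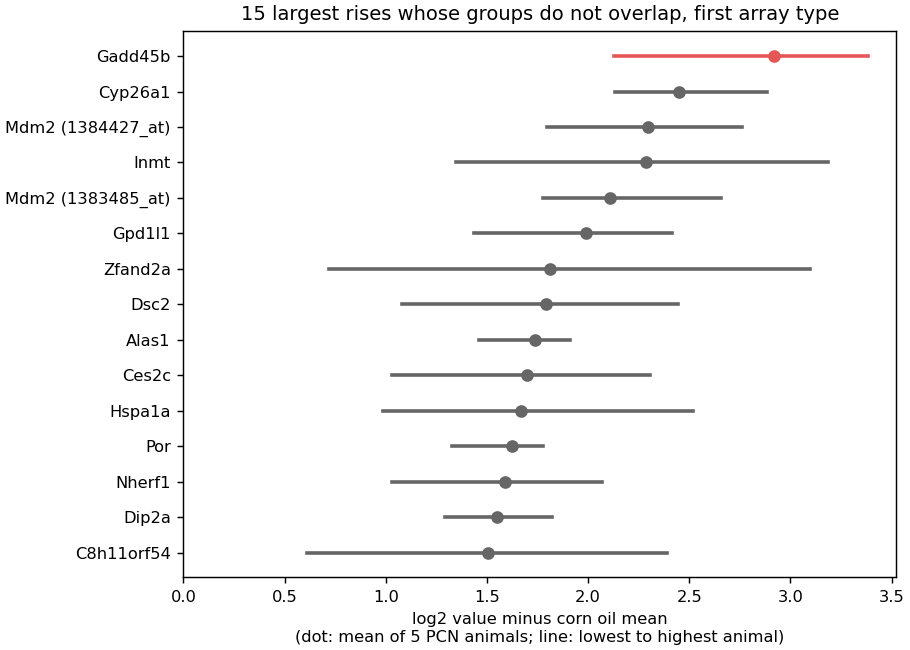
The 15 largest called rises (limma) among probe sets of named genes on the first array type whose groups did not overlap. Dots give the mean log2 response of the 5 PCN animals over the corn oil mean. Lines give the range from the weakest to the strongest animal, with Gadd45b in red. The span is 1.26 for Gadd45b, ninth smallest of the 15, against 0.446 for Alas1 and 2.38 for Zfand2a. The plot describes probe sets picked by their size and by the call, which favours a small spread.

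Genes whose deviations from their own group mean were most like those of Gadd45b were sought over the 10 arrays, among 9385 other named probe sets. The highest Pearson correlations were those of Enc1 (0.951), Dennd2b (0.908), Prtfdc1 (0.892), Ctc1 (0.887) and Plekha1 (0.879). The lowest were those of Pigt (-0.941), Ceacam1 (-0.912) and Mx2 (-0.900). Enc1 encodes an actin-binding kelch protein, Ctc1 a telomere maintenance protein and Mx2 an interferon-induced GTPase. Their PCN minus corn oil differences on the log2 scale lay between -0.14 and 0.32, and none was called (adjusted p from 0.516 to 0.983, limma). Gadd45a had a correlation of 0.07 with Gadd45b, Gadd45g of -0.46 and Gadd45gip1 of -0.13. These are the extremes of many comparisons over few arrays and carry no p.

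To place the family among the genes it works with, 11 lists of partners, upstream factors and targets were counted. Each gene was represented by its brightest tested probe set on each array type. On the first array type 12 of 167 list genes were called higher and 3 lower (8.98%, against 3.25% of all probe sets). A reference list of pregnane X receptor genes held 7 of the 12, and outside it 5 of 155 genes were called higher and 3 lower (5.16%). On the second array type 3 of 48 list genes were higher and 2 lower (10.4%, against 5.4% of all probe sets, 3.76% higher and 1.64% lower). Without corn oil replicate 2 the counts of the first array type were again 12 and 3, without PCN replicate 2 they were 15 and 3, and without PCN replicate 5 those of the second were 5 and 2. With the term for the 2 sets of arrays 9 genes of the first array type were higher and 0 lower. Without PCN replicate 1 there were 8 and 1. On the second array type 2 and 1 remained without corn oil replicate 1, PCN replicate 2 or PCN replicate 4, and 3 and 0 when corn oil replicate 4 was left out. List genes had median log2 fold changes of 0.02 (first array type) and 0.10 (second), against 5.5e-05 and -0.03 for all probe sets. The lists were chosen with earlier results of these data known. The shares of all probe sets also count every tested probe set, with or without a gene name, and not 1 per gene. Nothing is therefore read from the gaps between the shares.

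**Figure D4:**
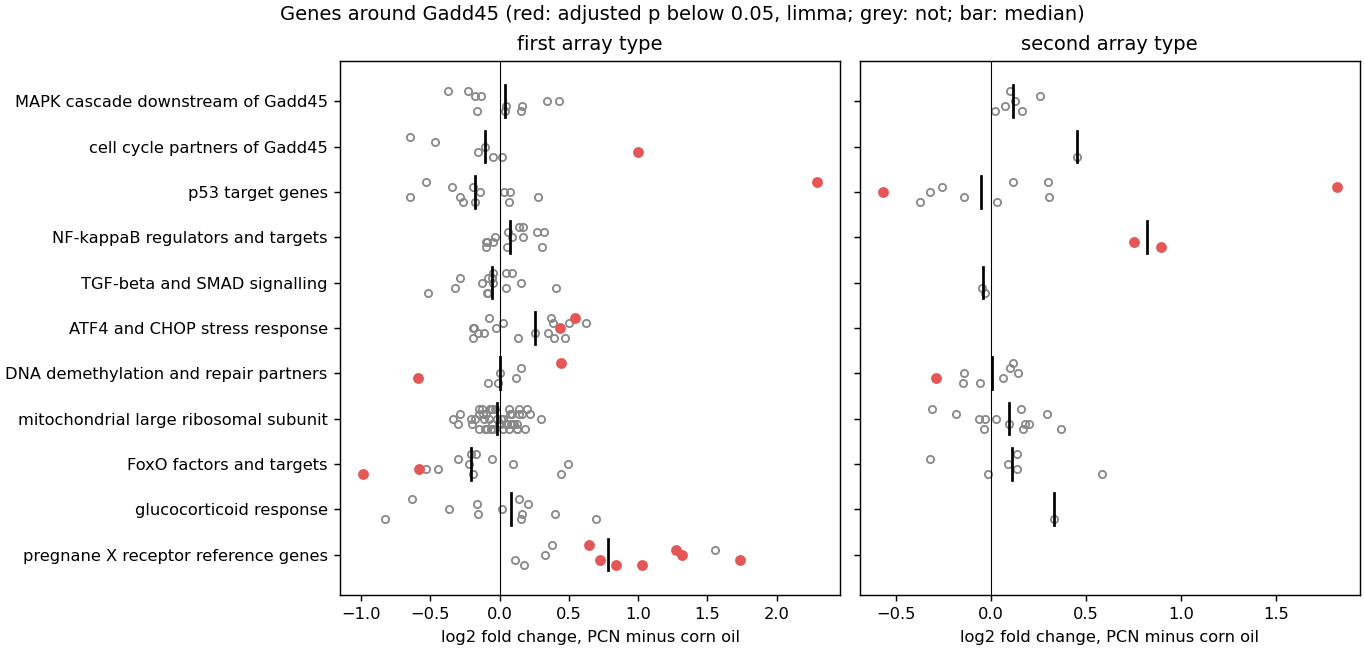
Log2 fold change, PCN minus corn oil, of each tested gene of the 11 lists on the first (left) and second (right) array type, with limma calls at an adjusted p below 0.05 in red and the list median as a bar. On the left 7 of the 12 pregnane X receptor reference genes are red, and the MAPK list has no red point in either panel.

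Downstream, in the MAP kinase cascade that Gadd45 proteins enter, no gene passed the test. Of 11 genes tested on the first array type 0 were called, with a median log2 fold change of 0.04, and of 6 on the second 0 were called, with a median of 0.11. The smallest p belonged to Map3k4 itself, the kinase that Gadd45 proteins bind (second array type, 7.05 ± 0.06 in 4 corn oil and 7.30 ± 0.13 in 5 PCN arrays, SD). Its log2 fold change was 0.26 ± 0.08 (SE, adjusted p = 0.0714, limma), and it passed the test after scaling to a common median (0.0453), with array weights (0.0321) and without PCN replicate 5 (0.0432). Mapkapk3, a kinase activated by p38, had -0.37 ± 0.12 (SE, adjusted p = 0.128, limma) and passed the test with array weights (0.046), but had -0.20 with the term for the 2 sets (0.53).

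Among cell cycle partners 1 of 7 genes was called higher and 0 lower on the first array type, with a list median of -0.10, and 0 of 1 was called on the second. The gene was Ccnd1, the cyclin of early G1, which went from 10.01 ± 0.32 to 11.01 ± 0.47 (SD, n = 5 each). Its log2 fold change was 0.996 ± 0.22 (SE, adjusted p = 0.031, limma), and all 3 of its tested probe sets were called. Leaving out any of 7 single arrays (all but corn oil replicates 2 and 5 and PCN replicate 2) ended the call, with adjusted p values up to 0.0878 (corn oil replicate 4 left out), and the term for the 2 sets gave 0.0909. Direct partners of Gadd45 had log2 fold changes of 0.02 for Pcna and -0.64 for Cdkn1a, neither called (adjusted p = 0.953 and 0.268).

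Of the p53 targets 1 of 13 genes was called higher and 0 lower on the first array type, and 1 of 10 higher and 1 lower on the second. The higher gene was Mdm2, the ubiquitin ligase that holds p53 in check, on both array types, with log2 fold changes of 2.29 ± 0.20 (SE, adjusted p = 0.000222, limma) and 1.82 ± 0.20 (SE, adjusted p = 0.00119). Fas, a death receptor, fell on the second array type from 8.20 ± 0.25 (n = 4) to 7.63 ± 0.09 (SD, n = 5), a log2 fold change of -0.57 ± 0.11 (SE, adjusted p = 0.0187, limma). Its call was lost without corn oil replicate 4 (0.0652). The list medians were -0.18 and -0.06, and 5 of 13 and 5 of 10 genes had positive values.

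In the list for NF-kappaB, a known inducer of Gadd45b, calls were made on the second array type only. There 2 of the 20 listed genes were tested and both were called higher, against 3.76% of all probe sets. On the first array type 0 of 14 were called, with a median of 0.07. The list was chosen with earlier results known, and a part of NF-kappaB in the Gadd45b difference was not tested. Bcl3, a nuclear partner of NF-kappaB, read 8.47, 8.44, 8.42 and 8.57 in corn oil replicates 1, 3, 4 and 5 and 9.38, 9.10, 9.57, 9.65 and 9.16 in PCN replicates 1 to 5, with no overlap. Its log2 fold change was 0.90 ± 0.12 (SE, adjusted p = 0.00363, limma) and all 3 of its probe sets were called. Nfkbiz, another nuclear relative of the NF-kappaB inhibitors, rose by 0.75 ± 0.16 (SE, adjusted p = 0.0244, limma), but its other probe set gave -0.05. The Nfkbiz call was lost without corn oil replicate 1 (0.0507), PCN replicate 2 (0.0539) or PCN replicate 4 (0.0517) and after quantile normalization (0.0534).

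In the TGF-beta list 0 of 15 genes were called on the first array type, while the second had 0 of 2, with medians of -0.05 and -0.04. The smallest p values were those of the inhibitor Smad7 (log2 fold change -0.32 ± 0.11 SE, adjusted p = 0.13, limma) and the signal carrier Smad3 (-0.29 ± 0.11 SE, adjusted p = 0.213, limma). Smad7 passed the test with array weights (0.0466), and the other probe set of Smad3 gave 0.01 (adjusted p = 0.98, limma).

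The ATF4 and CHOP list had the highest median on the first array type apart from the reference genes, 0.26, with 2 of 19 genes called higher, 0 lower and 12 above 0. Ppp1r15a, another growth arrest and DNA damage gene, whose product restores translation after stress, rose from 8.24 ± 0.16 to 8.79 ± 0.13 (SD, n = 5 each), a log2 fold change of 0.55 ± 0.10 (SE, adjusted p = 0.0126, limma). Eif2s1, the translation factor whose phosphorylation starts this response, rose by 0.43 ± 0.10 (SE, adjusted p = 0.0443, limma), a call that ended when any of 9 single arrays, all but PCN replicate 2, was left out (highest value 0.114, for corn oil replicate 4), with the term for the 2 sets (0.186), without a filter (0.0548) and after scaling to a common median (0.0538). Ddit3, the gene of CHOP and also a growth arrest and DNA damage gene by its older name, had 0.35 ± 0.13 (SE, adjusted p = 0.186).

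Partners in DNA demethylation and repair were called in both directions, 1 of 7 higher and 1 lower on the first array type, while the second had 0 of 8 higher and 1 lower, with medians of 0.0011 and 0.0021. Tdg, a glycosylase that removes oxidised methylcytosine, rose by 0.44 ± 0.10 (SE, adjusted p = 0.0306, limma). A probe set for it on the second array type gave -0.15 ± 0.08 (SE, adjusted p = 0.262). Apobec1, a cytidine deaminase that edits apolipoprotein B RNA, fell by a log2 change of -0.59 ± 0.13 (SE, adjusted p = 0.0305, limma), and the methyltransferase Dnmt3b by -0.29 ± 0.06 (SE, adjusted p = 0.0288). The Tdg call was lost when any of 7 single arrays was left out (all but corn oil replicates 2 and 3 and PCN replicate 2), with an adjusted p of up to 0.084. For Apobec1 this held for corn oil replicates 3 and 4 and PCN replicates 1 and 5 (up to 0.0817), and for Dnmt3b for 8 arrays, all but PCN replicate 5 (up to 0.0687). With the term for the 2 sets Tdg and Apobec1 had 0.0913 and 0.0541, and Dnmt3b had 0.0632 after cyclic loess.

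For the large subunit of the mitochondrial ribosome, where the Gadd45gip1 protein sits, 0 of 47 genes were called on the first array type, while the second had 0 of 13. The medians were -0.02 and 0.09. The smallest p values were those of Mrpl49 (log2 fold change 0.30 ± 0.08 SE, adjusted p = 0.0659, limma) and Mrpl53 on the second array type (0.37 ± 0.11 SE, adjusted p = 0.0676). Mrpl49 passed the test with the filter at the 50th percentile (0.0474) and with array weights (0.0477). Mrpl53 passed it with array weights (0.0242), without a variance trend (0.044) and without PCN replicate 5 (0.0185). Its log2 fold change dropped to 0.11 after quantile normalization (adjusted p = 0.426) and to 0.13 after cyclic loess (0.369), and on the first array type it gave 0.10 ± 0.10 (SE, adjusted p = 0.631).

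FoxO factors, which drive Gadd45a, and their targets had 0 of 13 higher and 2 lower on the first array type, while the second had 0 of 6 called, with medians of -0.21 and 0.11. Bcl2l11, the pro-death gene of BIM, fell by a log2 change of -0.99 ± 0.18 (SE, adjusted p = 0.0147, limma), while its other probe set gave -0.15. Ccng2, a cyclin of arrested cells, fell by -0.59 ± 0.12 (SE, adjusted p = 0.0228). With the term for the 2 sets these became -0.69 (adjusted p = 0.0609) and -0.59 (0.0520). The Ccng2 call was also lost without corn oil replicate 5 (0.055), PCN replicate 1 (0.0622) or PCN replicate 4 (0.0615).

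Glucocorticoid response genes had 0 of 12 called on the first array type (median 0.08) and 0 of 1 on the second. Klf9 had -0.63 ± 0.20 (SE, adjusted p = 0.113, limma), and passed the test without corn oil replicate 1 (0.0487) and with array weights (0.0467). With the term for the 2 sets it had -0.34 (adjusted p = 0.501), and its other probe set gave -0.20 (0.805). Fkbp5 on the second array type had 0.33 ± 0.11 (SE, adjusted p = 0.0992). In the pregnane X receptor reference list 7 of 12 genes were higher and 0 lower, with a median of 0.78, and its genes were put together with their response in these data known. Alas1 rose by 1.74 ± 0.14, Cyp3a18 by 1.31 ± 0.19, the P450 electron donor Por by 1.27 ± 0.14 and the drug pump Abcb1a by 1.03 ± 0.16 (log2 fold change and SE, adjusted p from 0.000119 to 0.00543, limma).

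Markers of other liver cells were read beside Gadd45b, which immune cells also express. The 11 tested hepatocyte markers, of 12 listed, averaged 13.34 to 13.72 per corn oil array and 13.51 to 13.65 per PCN array on the log2 scale of the first array type, and 0 were called. Kupffer cell and macrophage markers (8 of 12 tested) averaged 10.68 to 10.95 in corn oil and 10.59 to 11.22 after PCN, endothelial markers (7 of 11) 8.57 to 9.03 and 8.66 to 8.91, and stellate cell markers (9 of 11) 8.44 to 8.86 and 8.68 to 8.88. Lymphocyte markers (3 of 12) averaged 7.34 to 7.63 and 7.13 to 7.50, cholangiocyte markers (3 of 8) 7.49 to 7.72 and 7.59 to 7.70, and red cell markers (4 of 7) 9.79 to 9.92 and 9.25 to 9.91. The only neutrophil marker of 8 that passed the filter there was S100a9, at 6.94 to 7.48 in corn oil and 7.28 to 8.46 after PCN. The ranges of these list averages overlapped between treatments on the first array type, but single markers could differ. Col3a1 of the stellate cell list read 11.01 to 11.47 in corn oil and 11.52 to 11.88 after PCN, without overlap. Of that list 6 of 9 genes had positive values, with a median log2 fold change of 0.11. Among the red cell markers 0 of 4 had positive values, with a median of -0.28. By the brightest probe set of each gene 0 markers were called on either array type (limma).

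The second array type held fewer of these markers. Its 2 macrophage genes averaged 7.18 to 8.11 in corn oil and 7.51 to 8.61 after PCN, with a median log2 fold change of 0.34. One of them, the scavenger receptor Cd163, had 0.40 ± 0.16 (SE, adjusted p = 0.136, limma) by its brightest probe set, while its other probe set was called higher, at 0.58 ± 0.14 (SE, adjusted p = 0.0371). That was 1 of 18 marker probe sets tested on the second array type, and 0 of 52 were called on the first. The 4 endothelial genes averaged 8.61 to 8.79 and 8.68 to 8.99, with Lyve1 at 0.39 ± 0.12 (SE, adjusted p = 0.067, limma), and the hepatocyte factor Hnf4a had 0.32 ± 0.12 (SE, adjusted p = 0.116). The 3 lymphocyte genes averaged 6.97 to 7.06 in corn oil and 6.80 to 6.87 after PCN, without overlap, and none was called. The 2 stellate cell genes averaged 7.07 to 7.23 and 6.86 to 7.15, the cholangiocyte gene Cftr 5.88 to 6.07 and 5.73 to 5.97, and the red cell gene Epb42 5.66 to 5.95 and 5.44 to 5.70. Camp, the neutrophil gene tested there, read 6.24 to 6.47 in corn oil and 6.16 to 6.33 after PCN, so its mean difference (-0.09) had the opposite sign to that of S100a9 (0.58). The part of macrophages or neutrophils in the Gadd45b difference was not tested.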

How the data were processed

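Values are log2 expression per probe set, deposited by the authors already processed. Per the submitters' processing notes they used MAS5 (no version), and summarization, background correction and normalization are not given in the sources used here. MAS5 signals are linear, so the log scale and its base 2 were inferred from the values, which run from 4.31 to 15.2 and from 3.10 to 14.1. The array types were analysed separately. Probe sets were named through the platform annotation, with symbols updated from RefSeq GRCr8 by gene ID (12754 of 12789 single-gene probe sets on the first array type, 7530 of 7570 on the second). After leaving out 57 control probe sets per array type and means below the 30th percentile, 11106 and 10693 remained. limma 3.58.1 in R 4.3.3 compared PCN with corn oil (treatment alone, trended variances, two-sided, Benjamini-Hochberg over each array type, threshold 0.05), after a check on simulated data. The number of arrays limits precision, and p-values measure the spread between these animals. Members and gene lists were chosen with earlier results of these data known. All 4 members were named, with up to 4 called genes per list by size (first array type first) or the 2 with the smallest p, and the 5 most and 3 least alike to Gadd45b. Cdkn1a, Pcna and Ddit3 were added after their values were seen. Cyp3a2, Zfand2a and the cell type markers named singly also fall outside this rule. Alternatives were filters, scalings, the replicate number as a block, variance models, array weights, a term for 2 sets of arrays and leaving out each array.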

Additional observations from a re-analysis of the deposited data

Results flagged for a closer look

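Of 58 groups of arrays examined for a value standing apart from the rest (29 probe sets of the members and the named list genes, in 2 treatments), 4 were picked out by Dixon's test, and chance picks about 1 in 20. None belonged to a member of the Gadd45 family. Abcb1a read 9.89 in PCN replicate 2 of the first array type and 9.29 to 9.43 in the other PCN arrays. For Eif2s1 the first array type gave 9.69 for corn oil replicate 4, below the 9.93 to 10.02 of its group. Por read 12.35 in PCN replicate 5 and 12.71 to 12.81 in the others. Fkbp5 read 7.99 in PCN replicate 2 of the second array type and 7.56 to 7.68 in the others.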

How the results depend on the processing

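The log2 differences of the 4 members were recomputed under 17 alternatives each, and 67 of 68 moved by less than the pooled SD between replicates. That SD is wider than the SE, and by it even a fall of Gadd45a from 0.75 to 0.35 counts as unmoved. Gadd45b ranged from 2.59 with array weights to 3.43 with the term for 2 sets of arrays (which also leaves out corn oil replicate 2), and Gadd45a from 0.35 with that term to 0.90 without corn oil replicate 4. Gadd45g was the exception, moving from -0.55 to -0.99 with the term, and was -0.38 without corn oil replicate 1. Gadd45gip1 lay between -0.12 and 0.08. For the spread difference, PCN minus corn oil, leaving out single arrays gave -0.31 to 0.0047 for Gadd45b (sign turned without corn oil replicate 1), -0.29 to 0.0044 for Gadd45a (without corn oil replicate 2) and -0.021 to 0.0979 for Gadd45gip1 (without PCN replicate 2). Of all probe sets on the first array type 361 were called, 1051 with array weights and 154 to 447 without single arrays. On the second 577 were called, 875 after trimmed mean scaling, 1475 with array weights and 84 to 1479 without single arrays. Of the list genes 15 were called on the first array type, 27 with array weights, 9 with the term for 2 sets and 9 to 18 without single arrays. On the second 5 were called, 8 after trimmed mean scaling, 10 with array weights and 3 to 7 without single arrays. The share of calls that were higher was 70.9% on the first array type, 57.7% after quantile normalization, 59.3% after trimmed mean scaling and 48.1% with the term. On the second it was 69.7%, 87.8% after scaling to a common median, 58.8% with array weights and 45.4% after trimmed mean scaling. Array medians of the second array type were 6.32 to 6.33 in corn oil. They were 6.25 to 6.27 in PCN replicates 1 to 4 and 6.32 in PCN replicate 5. The cause of the differing shares was not tested. The 25 results for named list genes had 506 alternatives, of which 435 stayed on the same side of the threshold, 59 lost and 12 gained a call, and 0 changed direction.

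Replicate numbers are shared between treatments, but same-numbered arrays did not deviate together (correlations between -0.30 and 0.28 for the first array type, 0.02 and 0.20 for the second). With the replicate block 239 and 204 probe sets were called, and 11 and 3 list genes. Under the block the calls of Ccnd1 (adjusted p = 0.0973, limma), Ppp1r15a (0.0581), Eif2s1 (0.0999), Apobec1 (0.0562), Tdg (0.0578), Nfkbiz (0.0618) and Dnmt3b (0.0706) were lost. Each gene was measured by few arrays, and the signal over background of single probe sets is not given in the values used here.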
